A study of Mus musculus with 4 samples.

Results

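Endothelial cells of the mouse aorta were examined for a population marked by Plac8 and Plvap, with levels described between Oct4 knockout (KO) and Oct4 wild-type (WT) mice. A cell was taken as a member, called a rule cell below, by 3 conditions. At least 3 of the 7 markers Plac8, Gpm6a, Plvap, Fmo2, Ccdc3, Cyp4b1 and Lrg1 had at least 1 unique molecular identifier (UMI, the tag that counts 1 captured RNA molecule). Fewer than 4 of 8 capillary genes (Gpihbp1, Rgcc, Lpl, Car4, Timp4, C1qtnf9, Cd300lg, Tcf15) were detected, and fewer than 2 of 4 lymphatic genes (Ccl21a, Mmrn1, Lyve1, Reln). The cells had to hold at least 500 UMIs, of which at most 15% came from mitochondrial genes. In all, 258 of the 1973 kept aortic cells met these conditions, 212 of 1569 in the KO aorta and 46 of 404 in the WT aorta.

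The KO library pooled cells of 3 mice described as EC-Oct4Δ/Δ, and the WT library cells of 2 mice described as EC-Oct4+/+. Both groups were female, of strain C57/B6J, and came from an endothelial lineage tracing line on an Apoe knockout background, which lacks a lipoprotein-clearing apolipoprotein and accumulates cholesterol. All had eaten a Western diet for 5 weeks. Aortas with arch, thoracic and abdominal parts were digested with actinomycin D, a transcription blocker, at 1 µg/mL. Cells positive for the yellow reporter eYFP were sorted, with the gate set on littermates described as negative for Cdh5. Each group was captured as 1 droplet library of 10x Chromium type. The age of the mice and the tissue left on the aortas are not stated in the labels. With 1 library per group there was no test: all intervals are exact 95% intervals that cover counting error only.

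Venous endothelium is specified by the nuclear receptor Nr2f2 (COUP-TFII), which restrains the Notch programme of arteries, and it carries the ephrin receptor Ephb4. Veins and venules store von Willebrand factor and P-selectin, and venules display the chemokine-binding receptor Ackr1 and are the usual site of leukocyte exit. Plvap builds the diaphragms of fenestrae and caveolae, and Lrg1 encodes a secreted glycoprotein that modulates TGF-beta signalling through endoglin. The wall of a large artery also contains small vessels, the vasa vasorum, and the labels do not say whether these were sorted along with the luminal lining.

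Promoters of 3 genes that the results turn on are shown first: the venous regulator Nr2f2, the venular receptor Ackr1 and the marker Lrg1. Each runs 5′ to 3′ on the gene's minus strand, from 250 bases before to 50 bases after the start of the gene, as given by RefSeq for GRCm38.p6. Capitals mark AGGAAG, an ETS-type hexamer, and AGGTCA, a nuclear receptor half-site, on either strand (CTTCCT is the reverse complement of AGGAAG).
Nr2f2, chr7:70366697-70366996: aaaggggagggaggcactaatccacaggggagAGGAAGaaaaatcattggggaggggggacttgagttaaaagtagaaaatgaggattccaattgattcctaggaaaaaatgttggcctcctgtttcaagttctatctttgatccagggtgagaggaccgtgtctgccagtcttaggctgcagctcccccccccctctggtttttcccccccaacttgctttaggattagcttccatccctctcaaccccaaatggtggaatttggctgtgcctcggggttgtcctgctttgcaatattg
Ackr1, chr1:173333454-173333753: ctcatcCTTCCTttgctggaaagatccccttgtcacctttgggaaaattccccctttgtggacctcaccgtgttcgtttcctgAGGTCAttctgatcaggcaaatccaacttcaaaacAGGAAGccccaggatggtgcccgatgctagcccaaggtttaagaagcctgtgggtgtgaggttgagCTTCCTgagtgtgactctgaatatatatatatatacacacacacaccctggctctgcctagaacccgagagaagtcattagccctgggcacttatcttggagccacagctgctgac
Lrg1, chr17:56121897-56122196: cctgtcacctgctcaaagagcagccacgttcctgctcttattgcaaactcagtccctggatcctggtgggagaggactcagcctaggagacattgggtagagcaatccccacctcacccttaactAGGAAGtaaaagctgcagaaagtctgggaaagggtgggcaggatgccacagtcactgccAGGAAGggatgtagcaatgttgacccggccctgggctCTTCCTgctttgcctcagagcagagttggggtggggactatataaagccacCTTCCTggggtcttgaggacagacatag
AGGAAG occurred once in the Nr2f2 window, at 3 places in the Ackr1 window and at 4 in the Lrg1 window, and AGGTCA once, in the Ackr1 window. Of 32851 promoters of the same length, 35.4% held AGGAAG and 16.3% held AGGTCA on either strand, so these matches only describe the letters shown.

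The rule cells made up 13.5% of kept cells in the KO aorta (11.9% to 15.3%) and 11.4% in the WT aorta (8.46% to 14.9%). The intervals overlapped. The rule asks for UMIs, so deeper cells meet it more easily: the median rule cell held 3258 UMIs in the KO aorta and 3086 in the WT aorta, against 2227 and 1943 in the other kept cells of the same libraries. With every cell thinned to 1000 UMIs, and 148 KO and 72 WT cells too shallow for that left out, the shares were 7.32% of KO cells (6.02% to 8.80%) and 7.53% of WT cells (4.93% to 10.9%). At equal depth the shares thus lay within each other's intervals and their order turned. The 2 libraries shared 2 cell barcodes, none of them on a rule cell. Of cells with at least 3 markers, 8 KO and 0 WT cells were left out by the capillary genes, and 32 KO and 6 WT cells by the lymphatic genes.

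**Figure D1:**
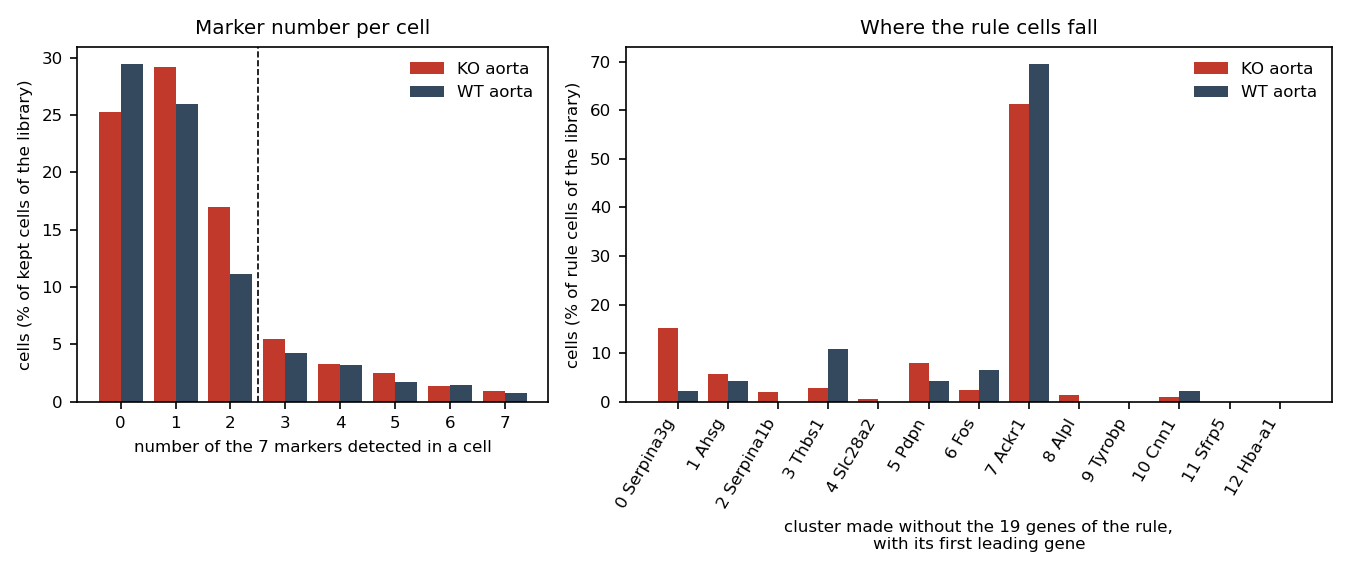
Left, kept cells by the number of the 7 markers detected (percent of each library's kept cells), with the threshold of 3 dashed. Right, rule cells by cluster (percent of each library's rule cells), for clusters made without the 19 genes of the rule and labelled by their first leading gene: cluster 7 held 61.3% of KO and 69.6% of WT rule cells.

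The levels of the 7 markers chose the cells and are given as a description. Levels are given as CPM, the share of a gene among all UMIs summed over a group of cells, on a scale that adds up to 1000000. Plac8, a small cysteine-rich protein, had 224 CPM in KO rule cells against 9.05 in other KO cells, and 134 CPM in WT rule cells against 1.20 in other WT cells. It had a UMI in 34.0% of KO rule cells (median depth 3258 UMIs) and in 1.05% of KO cells carrying the capillary genes (median depth 1498 UMIs). Lrg1 had 1858 CPM in KO and 1896 CPM in WT rule cells, against 234 CPM in other KO cells and 42.0 CPM in other WT cells. Plvap had 1607 CPM in KO and 1454 CPM in WT rule cells, against 447 CPM and 194 CPM in the other KO and WT cells. Plvap was thus present well beyond the rule cells, with UMIs in 39.6% of other KO cells and 20.4% of other WT cells. Some markers were shared with cells carrying the capillary or lymphatic genes. Cyp4b1 had a UMI in 62.7% of KO rule cells and 48.4% of KO capillary cells, and in 67.4% and 47.1% in WT. Gpm6a had a UMI in 50.5% of KO rule cells and 46.4% of KO lymphatic cells, and in 52.2% and 39.5% in WT. Ccdc3, like Plac8, was rare in KO capillary cells (1.05%), and it was found in 6.43% of KO lymphatic cells.

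To see each marker in cells that it did not itself choose, each was left out in turn. Cells were then chosen by at least 3 of the remaining 6. All 7 were still higher in the chosen cells in both libraries. The ratio to the remaining cells was 17.2 for Plac8 in KO and 112 in WT, where the remaining WT cells held a single Plac8 UMI. It was 6.57 in KO and 18.4 in WT for Lrg1, 5.27 and 7.93 for Ccdc3, and 4.77 and 6.22 for the membrane glycoprotein gene Gpm6a. The smallest ratios were those of the flavin monooxygenase gene Fmo2, at 3.43 in KO and 1.61 in WT, and of the cytochrome gene Cyp4b1, at 3.20 in KO and 2.30 in WT. By these values the 7 markers were detected together within cells, Fmo2 and Cyp4b1 least so. The 7 were chosen as a set with earlier results of these data known, so this is a description and no test.

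Clustering without the 19 genes of the rule placed most rule cells together. Cluster 7, led by Ackr1, Il33, Comp, Cyp26b1, Irf8, Abcg2, Meox2, Tmem252, Nr2f2 and Gpr182, held 130 of 212 KO rule cells and 32 of 46 WT rule cells. Conversely, 85.0% of its KO cells and 84.2% of its WT cells met the rule. The cluster made up 9.75% of kept KO cells and 9.41% of kept WT cells. These genes made the cluster, so their levels in it describe it and test nothing.

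The other 82 KO and 14 WT rule cells lay in other clusters and had little Nr2f2 or Plac8 RNA. In the KO aorta, 32 of them fell in cluster 0, led by Serpina3g and Tubb3, and 17 in cluster 5, led by Pdpn and Pard6g, against 1 and 2 WT rule cells. Rule cells inside cluster 7 held a median of 2603 UMIs in KO and 2757 in WT, against 4323 and 4034 UMIs for those outside it. Nr2f2 had 270 CPM in KO rule cells inside the cluster, against 19.5 CPM outside, and 286 CPM in WT rule cells inside, against 14.6 CPM outside. Plac8 had 457 CPM inside and 17.1 CPM outside in KO, and 240 CPM inside and no UMI outside in WT. Nr2f2 leads the cluster and Plac8 is a rule marker, so these values describe the split and test no label. Of 14 measured genes of a venous list, 10 were higher and 1 lower in rule cells inside the cluster than outside, in both libraries. The shares of all genes were 31.0% and 33.5%. The list holds Ackr1 and Nr2f2, which lead the cluster, and other members may have helped make it. This count therefore also describes the split and tests no label. Emcn, a member of that list, had 977 CPM inside and 942 CPM outside in KO, and 1154 and 554 CPM in WT. The vein-like label is used here only for the rule cells of cluster 7, called core cells below. The full set is called rule cells.

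The steps around the threshold of 3 markers are given without a test. In the KO aorta, Nr2f2 had 26.1 CPM in cells with 2 markers, just outside the rule, 22.3 CPM with 3 markers, just inside it, 204 CPM with 4 and 259 CPM with 5 or more. In the WT aorta the values were 7.09, 86.1, 244 and 222 CPM. Abcg2, a membrane efflux pump, had 66.7, 117, 438 and 785 CPM over the same steps in KO, and 113, 345, 759 and 908 CPM in WT. The arterial transcription factor gene Sox17 had 154, 148, 11.7 and 8.22 CPM in KO and 177, 43.1, 0 and 20.2 CPM in WT. In the KO aorta Nr2f2 and Sox17 changed level between 3 and 4 markers, and in the WT aorta the 17 cells with 3 markers lay between for Nr2f2, Abcg2 and Sox17. Other genes already stepped up between 2 and 3 markers in KO. Ackr1 had 22.3, 91.98, 111 and 115 CPM in KO, and 135, 14.4, 0 and 242 CPM in WT. Ptn, a secreted growth factor gene, had 54.2, 307, 741 and 230 CPM in KO, and 0, 172, 379 and 726 CPM in WT. The KO cells with 3 markers were therefore close to those with 2 for some genes and not for others.

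**Figure D2:**
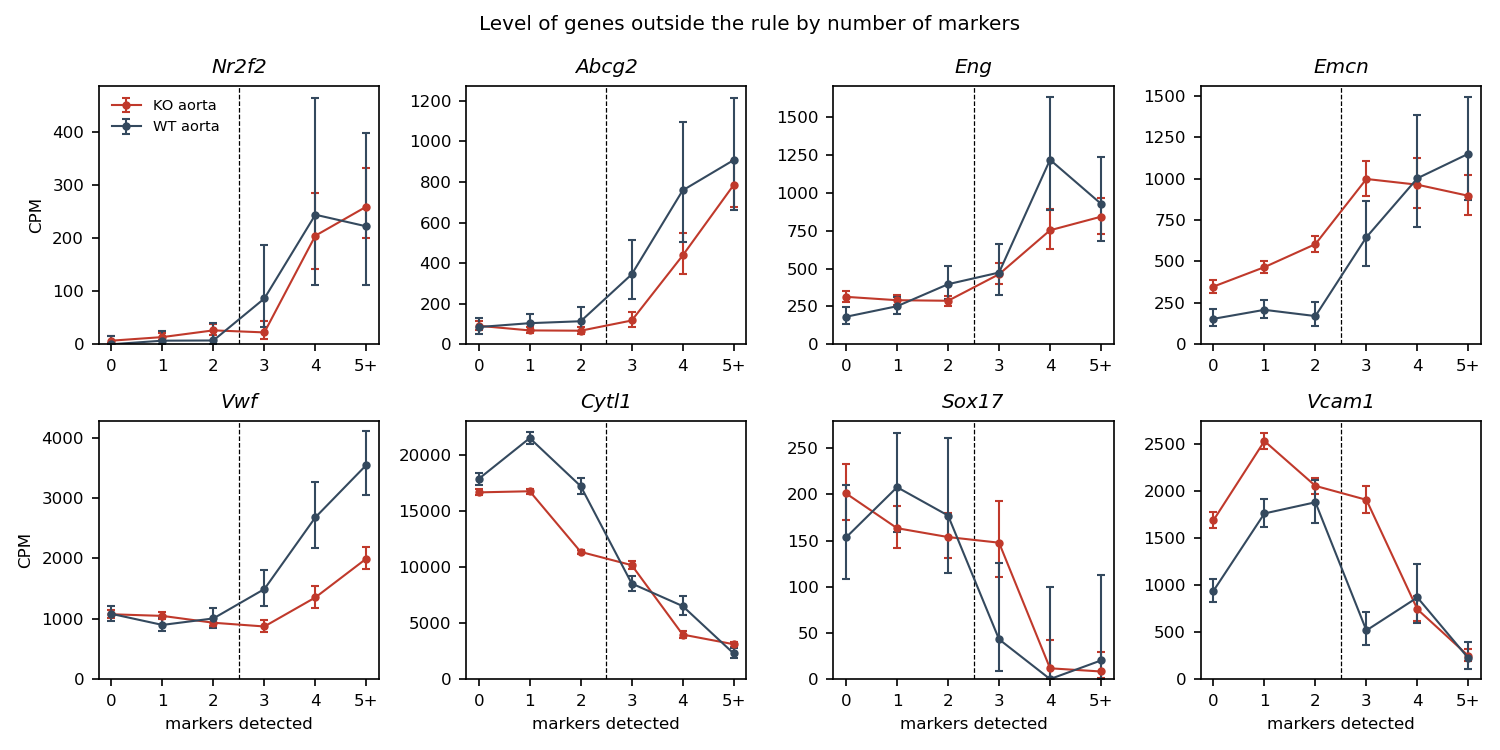
CPM of 8 genes outside the rule by number of markers detected (5+ means 5 or more), in cells passing the capillary and lymphatic limits, with exact 95% Poisson intervals and the threshold dashed. KO and WT curves of Nr2f2, Abcg2 and Eng are highest, and those of Cytl1 and Sox17 lowest, at 4 or more markers, while Vcam1 is lowest at 5 or more and still at 867 CPM in WT cells with 4.

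Against the other kept aortic cells, the rule cells of both libraries had more RNA of venous genes and less of arterial ones. A gene entered if its CPM averaged 50 or more over the 2 groups, with 30 UMIs or more, in each library, and the 19 rule genes were left out. Of 2694 such genes, 30 (1.11%) exceeded 2-fold in favour of the rule cells in both libraries and 29 (1.08%) in favour of the other cells. The ratio interval lay above 1 in both libraries for 138 genes (5.12%) and below 1 for 113 (4.19%). The rule chose cells by genes that vary with these, so the differences are a description.

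Abcg2 ranked first among the higher genes, with 398 CPM in KO rule cells against 94.4 in other KO cells (4.22-fold, 3.61 to 4.94), and 621 CPM in WT rule cells against 144 in other WT cells (4.32-fold, 3.27 to 5.69). Ptn, the heparin-binding growth factor pleiotrophin, had 379 CPM against 110 in KO and 397 CPM against 66.0 in WT, but 11.6% of its KO and 24.2% of its WT rule-cell UMIs came from 1 cell. The granzyme inhibitor gene Serpinb9 had 316 CPM against 102 in KO and 288 CPM against 64.8 in WT. Psen2, a presenilin of the gamma-secretase complex that cleaves Notch, had 212 CPM against 70.2 in KO and 295 CPM against 52.8 in WT. In none of these 4 did the intervals of rule cells and other cells meet. Abcg2, Serpinb9 and Psen2 were higher in core cells than in the other rule cells of both libraries. Ptn was so in WT, with 514 CPM in the core and 248 CPM outside. In KO, Ptn had 267 CPM in the core and 478 CPM outside.

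Next in rank came Nudt4, Bst1, Tmem88, Fam174b and Slfn2. Bst1, an ectoenzyme that hydrolyses NAD and a venous list gene, was 3.81-fold higher in KO and 4.78-fold higher in WT rule cells. Lbp, Il6st and Eng were 13th, 14th and 16th of the 16 genes named. Il6st, the shared receptor of the interleukin-6 family, had 520 CPM against 236 in KO and 564 CPM against 193 in WT. Eng, the TGF-beta co-receptor endoglin, had 647 CPM against 320 in KO and 794 CPM against 269 in WT. Lbp, which encodes the lipopolysaccharide-binding protein, was 2.36-fold and 3.47-fold higher. The remaining genes of the 16 were Nudt4, Tmem88, Fam174b, Slfn2, Nr2f2, Cd302, Ctnnal1 and Grrp1, with ratios of 2.52 to 3.89 in KO and 3.40 to 6.23 in WT. Of the 16, 13 had a promoter entry, 7 of them with AGGAAG and 2 with AGGTCA.

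Of the 18 genes of a venous list, 14 were measured, and 13 of these were higher in the rule cells of both libraries, beside 32.1% of all genes tested. Vcam1, an adhesion molecule for leukocytes, was the exception. The median log2 ratio of the 14 was 0.81 in KO and 1.42 in WT, beside -0.0068 and 0.052 over all genes tested. Ackr1, Bst1, Nrp2 and Nr2f2 were below the minimum level in the other cells of both libraries, and Ephb4 in those of KO. At least these genes entered through their level in rule cells, which favours higher ratios, so the count and the medians are descriptive. Nr2f2 had 137 CPM in KO rule cells against 46.1 in other KO cells, and 166 CPM in WT rule cells against 48.0 in other WT cells. Ackr1 had 104 CPM against 7.13 in KO and 83.3 CPM against 23.99 in WT. Ephb4 had 90.5 CPM against 47.7 in KO and 134 CPM against 59.98 in WT. Emcn, the sialomucin endomucin, had 958 CPM against 484 in KO and 890 CPM against 229 in WT. Vwf had 1333 CPM against 898 in KO and 2427 CPM against 822 in WT. Selp, which encodes P-selectin, had 312 CPM against 300 in KO (ratio 1.04, 0.901 to 1.20) and 199 CPM against 188 in WT (1.05, 0.693 to 1.56). This classical venous gene was therefore not separated from the other aortic cells in the full rule set. In core cells Selp had 195 CPM in KO and 240 CPM in WT, against 415 and 146 CPM in rule cells outside the core. The WT values rest on 21 and 10 UMIs.

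**Figure D3:**
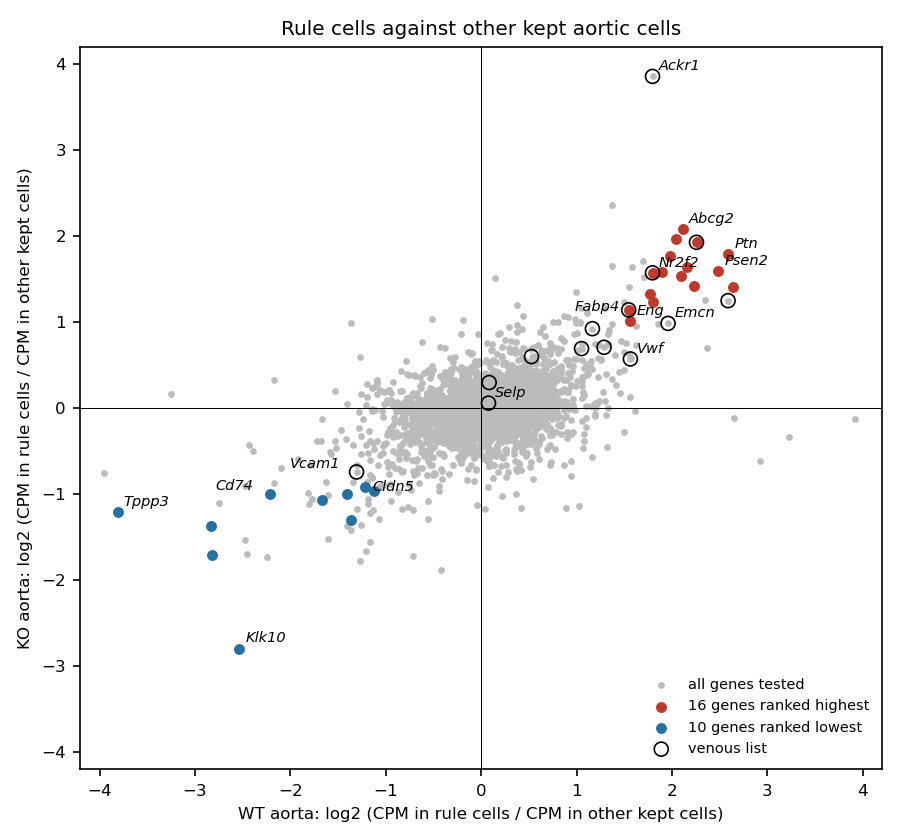
Log2 ratio of CPM in rule cells to CPM in other kept cells, in WT aorta (horizontal) and KO aorta (vertical), 1 point per gene tested that had UMIs in all 4 groups of cells. Hbb-bs and Lcn2 lie beyond the axes. Most venous list genes (circled) lie in the upper right with the 16 genes ranked highest, Vcam1 lies in the lower left and Selp near 0.

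Arterial genes ran the other way in most cases. Of 29 listed, 17 were measured, with 10 lower and 2 higher in the rule cells of both libraries, beside 28.2% lower and 32.1% higher of all genes. Median log2 ratios were -0.38 in KO and -0.55 in WT. Stmn2 and Sox17 were at least 2-fold lower in both: Sox17 had 73.7 CPM in KO rule cells against 158 in other KO cells, and 25.6 CPM in WT rule cells against 173 in other WT cells. Cxcl12, a chemokine of arterial and capillary endothelium, and Edn1, which encodes endothelin-1, were the 2 that were higher. Mgp and Tm4sf1, abundant genes of the list, were near 1 in KO, at log2 ratios of -0.05 and -0.02.

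The kallikrein gene Klk10 ranked lowest, with 27.2 CPM in KO rule cells against 189 in other KO cells and 44.8 CPM in WT rule cells against 260 in other WT cells, and in core cells 1 UMI in KO and none in WT. Cytl1, which encodes a small secreted protein and was far more abundant, had 6563 CPM in KO rule cells against 13122 in other KO cells, and 6059 CPM in WT rule cells against 16125 in other WT cells. The receptor phosphatase genes Ptprr and Ptprj had ratios of 0.305 and 0.385 in KO, and of 0.142 and 0.141 in WT. The junction genes Cldn5 and Cgnl1 had ratios of 0.531 and 0.404 in KO, and of 0.428 and 0.387 in WT. Mt1, Tppp3, Cd74 and Timp3 completed the 10. For Cd74 the WT value rested on 1 cell, which held 94.35% of its UMIs in the other WT cells, and without the highest cell of each group the WT log2 ratio was 1.61, in favour of the rule cells. General endothelial genes were close: Pecam1 had 2254 CPM against 2754 in KO and 2370 CPM against 3011 in WT, and the cadherin gene Cdh5 had 494 CPM against 480 in KO and 512 CPM against 499 in WT.

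The other kept cells were of several kinds, so the rule cells were set beside 3 sets: cells with at least 4 capillary genes (95 KO, 51 WT), cells with at least 2 lymphatic genes (140 KO, 38 WT) and the remainder (1122 KO, 269 WT). Nr2f2 was not particular to rule cells: it had 137 CPM in KO and 166 CPM in WT rule cells, and 387 and 438 CPM in the lymphatic sets. In the remainder it had 15.7 CPM in KO and 4.37 CPM in WT. Ptn, Lbp and Fam174b were likewise higher in the lymphatic sets than in rule cells, and Ctnnal1 was at least as high. Slfn2 had 212 CPM in the KO lymphatic set against 119 in KO rule cells, and 138 against 141 CPM in WT. Psen2 had 219 against 212 CPM in KO and 188 against 295 CPM in WT. The venous list gene Prss23 had 905 CPM in the KO and 814 CPM in the WT lymphatic set, against 233 and 339.5 CPM in rule cells. Tmem88 was higher in the capillary sets. Abcg2 had 344 CPM in the KO capillary set (260 to 446), against 398 CPM in KO rule cells (355 to 445). In WT it had 376 CPM in the capillary set (243 to 555) and 621 CPM in rule cells (504 to 758). These Abcg2 intervals overlapped in both libraries. Vwf, in contrast, had 20.2 CPM in the KO and 75.1 CPM in the WT lymphatic set, and 129 and 15.03 CPM in the capillary sets. No Ackr1 UMI fell in either set, whose depths allow up to 18.4 and 10.1 CPM in KO and 45.1 and 37.6 CPM in WT at 3 counts. Fabp4, a fatty acid carrier, had 4853 CPM in KO and 6264 CPM in WT rule cells, between 36584 and 34810 CPM in the capillary sets and 758 and 658 CPM in the remainder. The lower Cldn5 of rule cells held against all 3 sets.

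**Figure D4:**
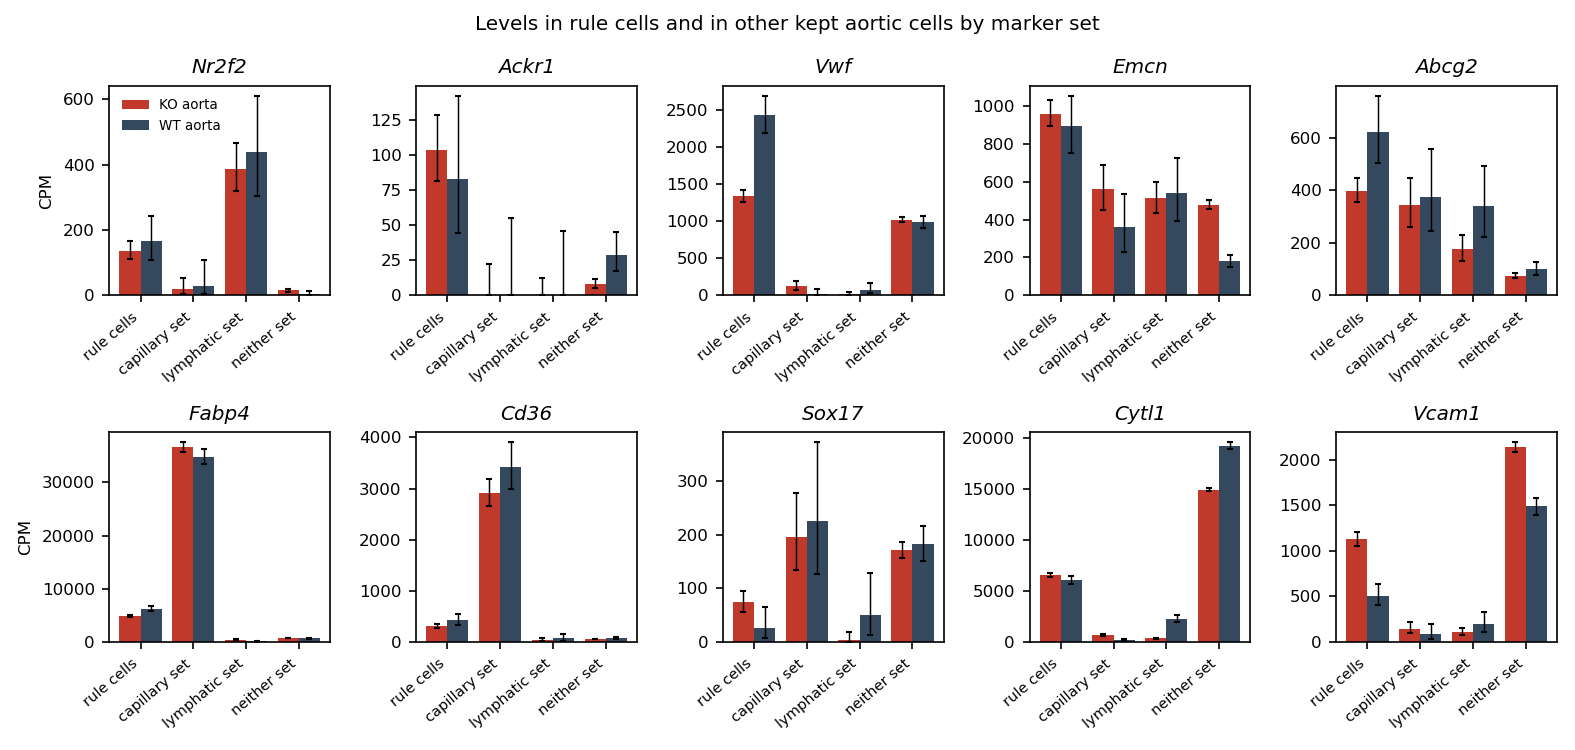
CPM of 10 genes in rule cells, in the capillary and lymphatic sets and in the remaining kept cells (neither set), for KO and WT aorta, with exact 95% Poisson intervals. Ackr1 and Vwf are highest in rule cells, Nr2f2 in the lymphatic set, Fabp4 and Cd36 in the capillary set, and Cytl1 and Vcam1 in the remainder.

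Capillary genes outside the rule were partly shared. Of 20 listed, 14 were measured, and 9 were higher and 2 lower in the rule cells of both libraries, beside 32.1% higher and 28.2% lower of all genes. Within the rule cells of both libraries, 8 of the 14 were higher and 4 lower in the core than outside it, beside 31.0% and 33.5% of all genes. The fatty acid translocase gene Cd36 had 630 CPM in KO core cells and 34.2 CPM in KO rule cells outside the core, and 754 CPM and 29.2 CPM in WT. Fabp4 had 9017 CPM in the KO core and 1161 CPM outside, and 10291 CPM and 1123 CPM in WT. The reverse held for Gja4, which encodes the arterial connexin 37, with 19.3 CPM in the KO core and 329 CPM outside, and no UMI in the WT core and 72.9 CPM outside. Vcam1 had 242 CPM in the KO core and 1908 CPM outside, and 251 CPM in the WT core and 831 CPM outside. Core cells of both libraries had more Cd36 and Fabp4 RNA, and less Gja4 and Vcam1 RNA, than the other rule cells. These genes were not kept out of the clustering that defines the core and may have helped make it. The counts and levels of core cells given here therefore describe the split and test nothing.

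Other gene groups are given beside the same shares of all genes, 32.1% higher and 28.2% lower in both libraries. Matrix and basement membrane genes had 10 of 23 measured members lower and 1 higher, Timp3 and Col4a1 among the lower ones. Junction genes had 8 of 14 lower and 4 higher. Among fatty acid genes 9 of 14 were higher and 2 lower, and among glycolysis genes 6 of 9 were higher and 1 lower. Median log2 ratios of the fatty acid genes were 0.15 in KO and 0.27 in WT, and those of the glycolysis genes 0.14 and 0.33. For the antioxidant, Notch, Wnt and immediate early lists the medians lay between -0.24 and 0.018 in both libraries.

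Markers of other cell types were checked next. The 12 lymphatic endothelial markers outside the rule summed to 1086 CPM in KO and 1012 CPM in WT rule cells, against 1428 and 1286 CPM in other KO and WT cells. None was at 0, and 34 KO and 6 WT rule cells held at least 3 of them. Prox1, the regulator of lymphatic identity, had 25.9 CPM in KO rule cells against 24.96 in other KO cells, and 19.2 CPM in WT rule cells, from 3 UMIs, against 25.2 in other WT cells. B cell and lung epithelial markers were at 0 in rule cells of both libraries. The 14 macrophage markers summed to 29.7 CPM in KO rule cells with 6 at 0, and to 6.41 CPM in WT rule cells with 13 at 0, against 443 and 168 CPM in other KO and WT cells. The 7 erythroid markers summed to 2.59 CPM in KO and 12.8 CPM in WT rule cells, against 2104 CPM in other KO cells and 17647 CPM in other WT cells. Fabp4 made up the adipocyte sum, and the other 7 adipocyte markers were at 0 in rule cells. The 13 fibroblast markers summed to 1813 CPM in KO and 884 CPM in WT rule cells, against 2155 and 1184 CPM in other cells, with Dpt and Clec3b at 0 in both groups of rule cells and Lum, Pdgfra, Serpinf1 and Fbln1 also at 0 in WT. The 12 smooth muscle markers summed to 1292 CPM in KO rule cells but 4291 CPM in WT rule cells, against 1738 CPM in other KO and 686 CPM in other WT cells, with Pln at 0. Of these smooth muscle UMIs, 32.8% in KO and 87.6% in WT rule cells came from 1 cell, and in core cells the sums were 283 CPM in KO and 217 CPM in WT.

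KO and WT rule cells were then set side by side. The deleted gene could not be checked: Pou5f1, which encodes Oct4, had no UMI in rule cells, which allows up to 3.88 CPM in KO and 19.2 CPM in WT at 3 counts. Of 2961 genes measured, 93 (3.14%) were 2-fold or more higher in KO rule cells and 121 (4.09%) were 2-fold or more lower. Of the venous genes, 7 of 15 measured were higher and 8 lower in KO rule cells, beside 46.9% higher and 53.1% lower of all genes, with a median log2 ratio of -0.080. In the core 3 of 15 were higher and 12 lower, beside 50.9% and 49.1% of all core genes, with a median of -0.24, and the interval lay below 1 for 1 of the 12, Vwf, beside 4.83% of all core genes. Since core cells and the other rule cells differ, the genes below are also given for the core, where 147 of 2319 genes (6.34%) were higher in KO by that size and 63 (2.72%) lower. WT values rest on 46 rule cells, 32 of them in the core.

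Vwf was lower in KO rule cells. It had 1333 CPM in KO and 2427 CPM in WT rule cells (ratio 0.549, 0.488 to 0.620), and 2028 CPM in the KO core against 3678 CPM in the WT core (0.55, 0.48 to 0.63). In rule cells outside the core it had 717 CPM in KO and 831 CPM in WT (0.86, 0.65 to 1.17), and in the other kept aortic cells 898 CPM in KO and 822 CPM in WT. The ratio interval excluded 1 in the core and held 1 in the rule cells outside it. Nr2f2 had 137 CPM in KO and 166 CPM in WT rule cells (ratio 0.823, 0.532 to 1.32), and Emcn 958 and 890 CPM (1.08, 0.897 to 1.30). In the core Nr2f2 had 270 and 286 CPM (0.94, 0.60 to 1.53) and Emcn 977 and 1154 CPM (0.85, 0.68 to 1.07), so neither was separated in either set.

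Several genes were lower in KO rule cells and in the other aortic cells alike. Serinc3, a membrane protein of the serine incorporator family, had 781 CPM in KO and 1665 CPM in WT rule cells (0.469, 0.405 to 0.544), and 732 and 1400 CPM in the other cells. In the core it had 1112 CPM in KO and 2113 CPM in WT (0.53, 0.44 to 0.63). Gstp1, a glutathione transferase with close copies in the genome, had 109 and 288 CPM in rule cells, 107 and 297 CPM in the core, and 91.6 and 210 CPM in the other cells. Slco2b1, an organic anion transporter, had 34.9 and 115 CPM in rule cells, 68.8 and 194 CPM in the core, and 17.6 and 34.8 CPM in the other cells. Plac9b, which has a near-identical copy, had 37.5 and 160 CPM in rule cells, and 61.7 and 222 CPM in the other cells. In the core, however, Plac9b had 9 UMIs in KO and none in WT, so all 25 WT rule-cell UMIs lay outside it. These 4 differences were thus not confined to the rule cells, and that of Plac9b was not seen in the core. Ctgf, a matricellular target of Hippo and TGF-beta signalling, had 168 CPM in KO and 544 CPM in WT rule cells, with 226 and 503 CPM in the core.

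Of the remaining lower genes, Mfap4, Tpm2, Myl9 and Flna rested largely on single WT cells. Postn, Chd3 and Igfbp3 are given after them, with their core values. All WT rule-cell UMIs of Mfap4 and Tpm2 and 96.6% of those of Myl9, smooth muscle genes by their known roles, came from 1 cell, as did 66.7% of those of Flna. Cluster 10, led by Cnn1 and Myh11, held 1 WT and 2 KO rule cells. In the core, Mfap4 had no UMI in either library, Tpm2 1 UMI in KO and none in WT, and Myl9 none in KO and 1 UMI in WT. Flna, which encodes an actin crosslinker, had 52.3 CPM in the KO core and 79.96 CPM in the WT core (0.65, 0.26 to 1.84). The matrix gene Postn had 37.5 CPM in KO and 134 CPM in WT rule cells but no UMI in the core of either. Chd3, a chromatin remodeller, was lower in the KO core too, with 27.5 CPM against 126 CPM from 11 WT UMIs. Igfbp3, which binds insulin-like growth factors, had 5.50 CPM in the KO core from 2 UMIs and 160 CPM in the WT core from 14 UMIs (ratio 0.03, 0.00 to 0.15).

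Among higher genes, Cd74, whose product is the invariant chain that accompanies MHC class II, had 348 CPM in KO rule cells and 32.0 CPM in WT rule cells, where it rested on 5 UMIs (ratio 10.9, 4.60 to 33.7). In the core it had 341 and 45.7 CPM, and in the other aortic cells 695 and 149 CPM. Of the 124 UMIs in other WT cells, 94.35% lay in 1 cell. Cluster 9, led by Tyrobp, Lyz2 and C1qa, held 12 KO and 1 WT of the other cells and no rule cell. C1qa, a defining macrophage gene, had 216 UMIs in other KO cells and none in other WT cells, and 2 and 0 UMIs in KO and WT rule cells. The part of these cells in the Cd74 values was not tested. Igfbp4, another binder of insulin-like growth factors, had 528 CPM in KO and 115 CPM in WT rule cells (4.58, 2.86 to 7.80), with 470 and 183 CPM in the core. The metallothionein gene Mt2 had 422 and 122 CPM in rule cells and 283 and 45.7 CPM in the core, the WT core value from 4 UMIs.

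MHC class I genes were mostly higher in KO rule cells. Of 18 measured, 14 were higher and 4 lower, beside 46.9% higher of all genes, and the interval lay above 1 for 7 of the 18, beside 6.35% of all genes. The median log2 ratio was 0.45 in rule cells against 0.19 for the same list in the other aortic cells. In the core 12 of 16 were higher, beside 50.9% of all core genes, 5 of them at least 2-fold, beside 6.34%, and 6 with the interval above 1, beside 6.08%, and the median was 0.64. H2-Q7 had 370 CPM in KO and 76.9 CPM in WT rule cells, and H2-Q6 had 290 and 76.9 CPM; these copies are near-identical and reads may be split between them. In the core the ratios were smaller, at 2.26 for H2-Q7 (1.09 to 5.42) and 1.85 for H2-Q6 (0.92 to 4.21). H2-K1 had 1337 CPM in the KO core and 651 CPM in the WT core (2.05, 1.56 to 2.75), and B2m had 5171 CPM in KO and 2895 CPM in WT rule cells, with 4832 and 2970 CPM in the core (1.63, 1.43 to 1.86). Heat shock genes had 10 of 11 members higher in KO rule cells, beside 46.9% of all genes, with a median of 0.42, and 10 of 10 in the core, beside 50.9%, with 0.60. All 12 mitochondrially encoded genes measured were lower in KO rule cells, beside 53.1% of all genes, 9 of them with the interval below 1, beside 7.36%, and with a median of -0.27. In the core 11 of the 12 were lower, beside 49.1%, with a median of -0.43, and the median mitochondrial share of a rule cell was 3.34% in KO and 4.596% in WT. The part of cell quality in these differences was not tested.

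The remaining higher genes came mainly from rule cells outside the core. Vcam1 had 1125 CPM in KO and 506 CPM in WT rule cells (2.22, 1.76 to 2.84), but 242 and 251 CPM in the core. Clu, a secreted chaperone, had 5224 and 2133 CPM in rule cells, and 713 and 514 CPM in the core. Gja4 had 184 and 32.0 CPM in rule cells, and in the core 7 UMIs in KO and none in WT. Lcn2, which encodes a siderophore-binding lipocalin, had 345 CPM in KO and 6.41 CPM in WT rule cells from 1 UMI (ratio 53.9, 9.59 to 2138), and 49.8% of the KO UMIs lay in 1 cell, with 14 UMIs in the KO core and 1 in the WT core. Serpina3n, of a multigene family of protease inhibitors, had 160 and 6.41 CPM in rule cells (25.0, 4.41 to 997), and 2 UMIs in KO and 1 UMI in WT in the core. The chemokine gene Cxcl2 had 212 and 44.8 CPM in rule cells but 13.8 and 11.4 CPM in the core. Lgmn, a lysosomal protease, had 616 and 243 CPM in rule cells, and 366 and 274 CPM in the core (1.34, 0.86 to 2.16). Some fibroblast-type RNAs were also higher in KO rule cells, and Dcn and the summed fibroblast markers were higher in the KO core too. Dcn, which encodes the matrix proteoglycan decorin, had 1164 CPM in KO and 141 CPM in WT rule cells (8.26, 5.42 to 13.3), 261 and 34.3 CPM in the core, and 740 and 155 CPM in the other cells. Lum, a related proteoglycan gene, had 138 CPM in KO rule cells and no UMI in WT rule cells. The 13 fibroblast markers summed to 3045 CPM in KO and 1823 CPM in WT rule cells outside the core, and to 424 and 148 CPM in the core. Cluster 0, which held 32 KO and 1 WT rule cells, had Lum, Dcn, Lcn2 and Serpina3n among its leading genes. The part of fibroblast RNA in these differences was not tested.

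Some core genes named here were chosen after their values were seen, from the 12 highest and 12 lowest in the core. Bmp4, a bone morphogenetic protein, had 250 CPM in the KO core and 720 CPM in the WT core (0.35, 0.25 to 0.49). Ptprb, the phosphatase that opposes Tie2 signalling, had 1084 and 1919 CPM (0.56, 0.47 to 0.68). Ppp1r15a, a stress-induced regulator of translation, had 603 and 126 CPM (4.80, 2.63 to 9.75), and the AP-1 gene Junb 1235 and 617 CPM (2.00, 1.51 to 2.71). Hes1, a Notch target, had 663 and 297 CPM (2.23, 1.49 to 3.49). Differences of this size in a core of 32 WT cells pooled from 2 mice have no replicate check.

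The same rule applied to the left lung lobe of these groups gave a partly different picture. It was met by 115 of 508 kept KO lung cells (19.1% to 26.5%) and 186 of 775 kept WT lung cells (21.0% to 27.2%). These lung cells were chosen mainly by Plvap, Cyp4b1 and Fmo2, and only 2 KO and 3 WT cells had 5 or more markers, against 75 KO and 16 WT cells in the aorta. Among them Gpm6a was found in 1 KO and 1 WT cell, and Ccdc3 in 0 KO and 1 WT cells. Ackr1 had no UMI in the KO and 12.1 CPM in the WT lung cells that met the rule, and Ptn had none in either. Other genes were higher in these cells than in the other lung cells, as in the aorta. Vwf had 1338 CPM against 372 in KO and 1184 CPM against 376 in WT. Bst1 had 48.7 CPM against 11.2 in KO and 41.15 CPM against 11.1 in WT. Abcg2 had 161 CPM against 92.7 in KO and 269 CPM against 154.5 in WT. Nr2f2 was mixed, with 60.8 CPM against 25.3 in KO and 46.0 CPM against 74.95 in WT.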

How the data were processed

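Single-cell RNA was measured in 4 droplet libraries, 1 per genotype and tissue. The deposited values are raw UMI counts per gene and cell, which the authors made with Cell Ranger. The build was mm10, per the submitters' processing notes, and versions and annotation are not stated there. Where rows shared a symbol, they were added up. Coordinates come from GENCODE M21.

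Scrublet in scanpy 1.11.5, at 0.8% per 1000 barcodes, called 4 doublets in each aortic library (0.255% of KO and 0.990% of WT kept cells), 2 KO and 1 WT among rule cells. They were kept, and left out as an alternative. Free RNA was not corrected. The summed rule cells held 773310 UMIs in KO and 156128 in WT, and the other cells 3645522 and 833629.

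CPM carry exact Poisson intervals, ratios exact conditional binomial intervals and shares exact Clopper-Pearson intervals. The script was tested on simulated counts. Leiden clusters used log counts scaled to 10000, 2000 variable genes, 30 components, 15 neighbours and resolution 1. Cells are not replicates, so no test was run. Genes were ranked by the interval bound nearest to 1, in the weaker library where there were 2 ratios. The 16 highest and 10 lowest in rule cells and the 12 highest and 12 lowest in KO are named, leaving out rule genes, mitochondrial, ribosomal, haemoglobin, unnamed and other cell type marker genes; up to 3 highest and lowest members of a list described, and set genes such as Nr2f2 and Vwf, are also named. The members and lists were chosen with earlier results of these data known.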

Additional observations from a re-analysis of the deposited data

Results flagged for a closer look

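For 11 of the named genes, ratios pointed in opposite directions in the groups set side by side, with both counting intervals clear of 1. The difference between the ratios was not tested in any of them.

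KO over WT, Vwf had a ratio of 0.549 in rule cells and 1.09 in the other kept aortic cells, and Eng of 0.814 and 1.19. Cytl1 had 1.08 in rule cells and 0.814 in the other cells. Igfbp3 had 0.215 and 1.85, and Postn 0.279 and 1.99.

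For smooth muscle genes, the KO over WT ratio in rule cells and in other cells was 0.183 and 10.8 for Mfap4, 0.283 and 3.36 for Tpm2, and 0.330 and 5.47 for Myl9. Between 96.6% and 100% of the WT rule-cell UMIs of these 3 genes lay in 1 cell. The smooth muscle markers Acta2 (0.262 and 3.05), Tagln (0.338 and 2.295) and Cnn1 (0.329 and 11.03), which the naming rule leaves out, ran the same way. Without the highest cell of each group, the log2 ratio of Myl9 in rule cells was 1.77.

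Rule cells over other cells, Cxcl2 had a ratio of 1.98 in KO and 0.389 in WT, Tpm2 of 0.790 and 9.38, and Chd3 of 0.519 and 2.87. Igfbp3 had 0.334 in KO and 2.86 in WT, and Flna 0.672 and 2.23.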

How the results depend on the processing

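No paired analysis was possible because each group was 1 library, so the groups shared fewer than 2 replicate numbers. The share of rule cells, KO then WT, was 30.5% and 22.5% with at least 2 markers, 8.03% and 7.18% with 4, 4.78% and 3.96% with 5, and 7.32% and 7.53% with cells thinned to 1000 UMIs. Without the capillary and lymphatic limits it was 15.9% in KO. Genes at least 2-fold higher and lower in the rule cells of both libraries numbered 8 and 8 with 2 markers, 72 and 80 with 4, 79 and 111 with 5, and 85 and 114 in core cells. They numbered 47 and 68 with minima of 20 CPM and 15 UMIs, and 13 and 15 with 100 CPM and 60 UMIs. The lower genes were 87 with thinned cells, 50 by the mean CPM of single cells and 17 with at least 2 of the 5 markers other than Plvap and Lrg1.

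Genes at least 2-fold higher and lower in KO rule cells numbered 44 and 34 with 2 markers, 171 and 78 with 4, 147 and 63 in core cells, 57 and 16 with thinned cells, and 149 and 55 without the highest cell. They numbered 366 and 452 at 20 CPM, and 42 and 32 at 100 CPM. The lower genes were 45 with 5 markers and 63 with 2 of the 5 markers. The alternatives with 5 markers, with 2 of the 5 markers and with core cells were chosen after seeing the data.

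Some named genes changed sign on the log2 scale. With 2 markers these were, rule over other, Mt1 in KO (0.049), Vcam1 in WT (0.041), Gja4 in WT (0.23) and Fabp4 in KO (-0.23), and Myl9 KO over WT (0.13). With 4 markers they were Vcam1 (-0.14) and Sox17 (-0.26), KO over WT. With 5 markers they were Serpina3n (-1.29), Clu (-0.016), Lgmn (-0.12) and Sox17 (-1.29), and in core cells Serpina3n (-1.05) and Vcam1 (-0.053). With 2 of the 5 markers they were Mt2 (-0.74), Tpm2 (0.19), Myl9 (0.55) and Sox17 (-0.35), and Mt1 in WT, rule over other (0.35). In WT, rule over other, Lcn2 was 1.08 without the limits and 2.14 against the remaining set alone. Cd74 in WT was 0.62 with thinned cells, 0.18 by the mean of single cells and 1.61 without the highest cell. KO over WT, Vcam1 was -0.29 with thinned cells and Myl9 1.77 without the highest cell. The causes were not tested.

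The log2 ratios of Vwf (-1.01 to -0.67), Cd74 (2.67 to 5.01), Igfbp4 (0.68 to 2.48), Serinc3 (-1.16 to -0.93) and Gstp1 (-1.52 to -1.26), KO over WT, kept their sign in 14 of 14 alternatives. Depth limits the WT values most, since 3 counts in WT rule cells equal 19.2 CPM.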
